A study of Mus musculus with 9 samples.

Results

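The *Gnas* imprinted cluster was analysed in whole-genome bisulfite sequencing (WGBS) of mouse embryonic stem cells (ESCs), as the CpGs over the genes *Gnas* (ENSMUSG00000027523.12) and *Nespas* (ENSMUSG00000086537.1) with 20 kb added on both sides. In the mm9 build this is chromosome 2 from 174086738 to 174192245, a region of 105.508 kb. Of its 1898 reference CpGs, 1797 had at least 3 reads in every genotype and were used, out of 13328402 such CpGs in the part of the genome that was analysed in all genotypes. WGBS converts unmethylated cytosines, so that the share of unconverted reads over a CpG gives its methylation level; 5-methylcytosine and 5-hydroxymethylcytosine are not separated. J1 ESCs of strain 129S4/SvJae, grown on gelatin in medium with serum and LIF, were compared as wild type (WT), *Dnmt3a*-/- (*Dnmt3a* KO) and *Dnmt3b*-/- (*Dnmt3b* KO) cells. DNMT3A and DNMT3B are the methyltransferases that place new CpG methylation, and the comparison asks what each of them contributes. The labels give 3 biological replicates for each of the 3 genotypes, but the 3 libraries of a genotype are merged in 1 table, so that every level is a single pooled value, the spread between replicates is unknown and genotypes could not be tested over replicates. Whether the replicates of a knockout come from 1 clone is not given in the sources used here, and an effect of a line cannot be told apart from that of its genotype. Intervals given here are 95% intervals of the reads and cover counting error only. Read numbers over several CpGs count a read at each CpG that it covers, so that they are not independent and the intervals are too narrow.

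*Gnas* gives rise to several transcripts from alternative first exons that are spliced to shared downstream exons. The upstream start gives *Nesp*, which encodes a secretory protein of neuroendocrine cells and is expressed from the maternal allele. *Gnasxl* encodes the extra-large G protein alpha subunit and is expressed from the paternal allele, as are the antisense RNA *Nespas* and the noncoding exon 1A transcript. Exon 1 of *Gnas* starts the messenger of the stimulatory G protein alpha subunit, which couples hormone receptors to adenylyl cyclase and is expressed from both alleles in most tissues. In the mouse, *Nespas*/*Gnasxl* and exon 1A carry methylation on the maternal allele that is inherited from the oocyte, *Nesp* acquires methylation on the paternal allele after fertilization, and exon 1 is unmethylated on both alleles. The tables count reads per CpG in cells of 1 inbred strain, so that a level near the middle from methylation of 1 allele cannot be told apart from methylation of both alleles in part of the cells.

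Starts were taken from the mm9 GENCODE annotation. The *Nesp* start lies at 174109821 on the plus strand, -45.7 kb from the start of *Gnas* exon 1 at 174155507. *Nespas* starts on the minus strand at 174120937, and *Gnasxl* starts on the plus strand at 174123360, so that both lie back to back at -34.6 kb and -32.1 kb. Exon 1A has 6 annotated starts, and the one of the transcript with a coding sequence was used, at 174153269 and -2.24 kb. Promoter windows reached 500 bp to both sides of a start, and *Nespas*/*Gnasxl* was taken as 1 window of 3424 bp around both starts. CpG density differed along the cluster, from 4.70 CpGs per 100 bp at *Nesp* and 4.26 at *Nespas*/*Gnasxl* to 7.29 at exon 1A and 11.8 at *Gnas* exon 1.

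Stretches outside annotated exons are shown from the reference sequence of mm9, plus strand, for the 3 promoters whose levels differed between genotypes, with each CpG in capitals. They are the 250 bp before the *Nesp* start (chr2:174109571-174109820), the 300 bp that, among those of the *Nespas*/*Gnasxl* window free of annotated exons, hold most copies (3) of the TGCCGC core bound by ZFP57 (chr2:174121158-174121457), and the 250 bp before the first exon 1A start (chr2:174152821-174153070).
Nesp: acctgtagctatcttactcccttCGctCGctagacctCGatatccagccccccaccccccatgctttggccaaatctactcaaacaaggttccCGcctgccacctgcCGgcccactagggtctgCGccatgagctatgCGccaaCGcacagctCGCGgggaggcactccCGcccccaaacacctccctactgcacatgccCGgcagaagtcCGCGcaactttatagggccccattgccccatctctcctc
Nespas/Gnasxl: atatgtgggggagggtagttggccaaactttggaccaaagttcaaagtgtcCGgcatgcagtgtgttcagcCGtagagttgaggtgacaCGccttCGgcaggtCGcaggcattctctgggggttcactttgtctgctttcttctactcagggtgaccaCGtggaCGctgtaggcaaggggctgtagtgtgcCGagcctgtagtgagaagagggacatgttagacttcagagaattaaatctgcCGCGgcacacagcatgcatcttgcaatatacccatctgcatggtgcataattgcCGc
exon 1A: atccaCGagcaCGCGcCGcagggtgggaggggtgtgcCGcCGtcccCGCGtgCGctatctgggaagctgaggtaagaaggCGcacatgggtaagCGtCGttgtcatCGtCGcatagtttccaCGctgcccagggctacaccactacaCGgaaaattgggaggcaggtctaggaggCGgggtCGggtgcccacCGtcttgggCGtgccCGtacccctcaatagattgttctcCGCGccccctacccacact
Over the 13 CpGs used of the *Nesp* stretch, 48 of 202 reads were methylated in WT, 0 of 233 in the *Dnmt3a* KO, which would allow a share of up to 1.29% if these counts were independent, and 4 of 149 in the *Dnmt3b* KO. Over the 11 CpGs of the *Nespas*/*Gnasxl* stretch, 125 of 293 reads were methylated in WT, 111 of 286 in the *Dnmt3a* KO and 115 of 366 in the *Dnmt3b* KO. Over the 23 CpGs of the exon 1A stretch, these were 68 of 432, 3 of 332 and 45 of 359 reads. The *Dnmt3a* KO thus had almost no methylated reads at *Nesp* and exon 1A, whereas at *Nespas*/*Gnasxl* methylated reads were common in each genotype.

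The tables were checked against their labels. A run of 12 CpGs in *Dnmt3a* had no read in the *Dnmt3a* KO, and a run of 30 CpGs in *Dnmt3b* had none in the *Dnmt3b* KO, at mean depths of 16.8 to 31.5 reads in the other genotypes. Promoters of the ESC regulators *Pou5f1*, *Sox2* and *Sall4* had mean methylation of at most 1.55% in each genotype; their expression was not analysed here. Median depth in the cluster was 20 reads per CpG in WT, 18 in the *Dnmt3a* KO and 21 in the *Dnmt3b* KO, against 22, 20 and 21 over all CpGs analysed.

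Mean methylation over the cluster was 59.3% in WT, 35.6% in the *Dnmt3a* KO and 51.9% in the *Dnmt3b* KO, against 82.4%, 50.3% and 75.5% over all CpGs analysed. The cluster alternated between highly methylated stretches and promoters of low or middle levels. Upstream of *Nesp*, 257 CpGs had a mean of 86.4% in WT, 47.9% in the *Dnmt3a* KO and 78.7% in the *Dnmt3b* KO. Between *Gnasxl* and exon 1A the means of 419 CpGs were 72.2%, 47.0% and 67.3%. This stretch includes part of the run of middle levels given below, and the WT median of its 500-bp bins with at least 3 CpGs was 87.1%. In the *Gnas* body after exon 1, 272 CpGs had means of 71.5%, 42.7% and 66.2%, and the 175 CpGs downstream of *Gnas* had means of 93.1%, 61.7% and 86.8%. The body includes the CpG-dense bins at 0.74 and 1.24 kb, with 0.804% and 5.58% in WT, and its bins had a WT median of 92.5%. In these 4 stretches the *Dnmt3a* KO had 55.4% to 66.3% and the *Dnmt3b* KO 91.1% to 93.2% of the WT level. The stretch from *Nesp* to *Nespas*, which holds most of the *Nesp* coding exon, had a mean of 24.5% over 234 CpGs in WT, against 10.9% in the *Dnmt3a* KO and 14.6% in the *Dnmt3b* KO. Its CpG-dense part next to *Nesp* was low in WT, but the bins from -40.3 to -36.3 kb had 56.3% to 96.6%, and the median of its bins with at least 3 CpGs was 42.4%.

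**Figure D1:**
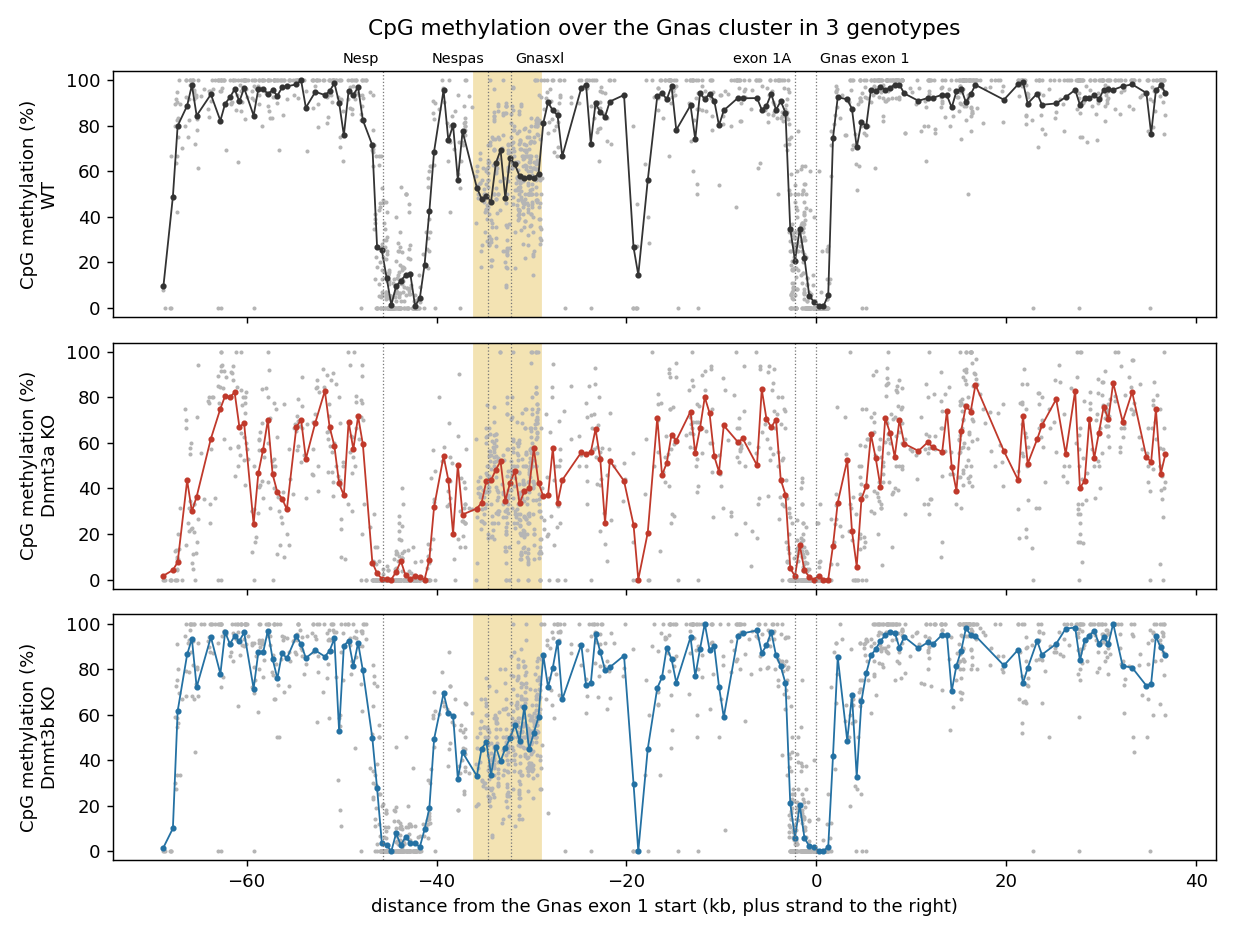
CpG methylation (%) against the distance from the *Gnas* exon 1 start (kb) in the 3 genotypes, with grey points for single CpGs, coloured points and lines for the means of 500-bp bins with at least 3 CpGs, dotted lines for the starts and a shaded band for the longest run of bins between 30% and 70% in all 3 genotypes. The band spans 7 kb around *Nespas* and *Gnasxl*, and the bins from -0.757 to 1.24 kb around exon 1 lie at most at 5.58% in each genotype, whereas the bin of the *Nesp* start has 25.3% in WT, 0.317% in the *Dnmt3a* KO and 3.57% in the *Dnmt3b* KO.

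At *Nespas*/*Gnasxl*, middle levels were found in each genotype. Mean methylation of 143 CpGs was 56.7% ± 22.3 (SD over CpGs) in WT, 43.5% ± 19.05 in the *Dnmt3a* KO and 45.5% ± 17.0 in the *Dnmt3b* KO. The *Dnmt3a* KO had 76.8% and the *Dnmt3b* KO 80.2% of the WT level, the largest shares among *Nesp*, *Nespas*/*Gnasxl* and exon 1A. Both knockouts were lower than WT, by -13.2 and -11.2 points in mean methylation and by -15.1 (interval -17.6 to -12.5) and -14.5 points (-16.9 to -12.1) in read share. Levels of 20% to 80% were found at 112 of 143 CpGs in WT, 128 in the *Dnmt3a* KO and 133 in the *Dnmt3b* KO. CpGs varied more than the SD of 11.8 to 12.6 points that counting error gives at this depth, in each genotype.

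Both starts of this window were also taken separately. At *Nespas*, the antisense start, 45 CpGs had means of 47.7% in WT, 43.9% in the *Dnmt3a* KO and 42.7% in the *Dnmt3b* KO. The interval of the difference in read share included 0 for the *Dnmt3a* KO (-6.73 to 2.27) and lay below 0 for the *Dnmt3b* KO (-10.4 to -1.54). At *Gnasxl*, 46 CpGs had means of 57.0%, 46.5% and 47.3%, which is -10.5 and -9.65 points from WT. In read share, which gives more weight to deeply covered CpGs, the differences were larger, at -16.7 (-21.0 to -12.3) and -16.8 points (-20.9 to -12.8). Whether the difference at *Gnasxl* was larger than that at *Nespas* was not tested. The strands differed in the *Dnmt3b* KO at *Gnasxl*, where reads of the plus strand gave 28.5% over 40 CpGs and reads of the minus strand 67.6% over 39 CpGs, against 54.3% and 60.9% in WT and 46.2% and 44.5% in the *Dnmt3a* KO. At *Nespas* the plus strand was higher than the minus strand in each genotype, at 57.8% and 38.9% in WT, 59.2% and 32.5% in the *Dnmt3a* KO, and 45.4% and 35.6% in the *Dnmt3b* KO. Over the whole window the *Dnmt3b* KO differed from WT by -18.6 points on the plus strand and by -1.85 points on the minus strand, and the *Dnmt3a* KO by -8.19 and -14.6 points. The size of the difference at *Nespas*/*Gnasxl* therefore depended on the reads counted. A CpG needed 3 reads of a strand in every genotype, so that the sets of CpGs were not the same, with 116 for plus and 101 for minus. At *Gnasxl*, with 40 and 39 of 46 CpGs, most CpGs were counted on both strands. The part of the strands in the result was not tested, and the strands were not compared at shared CpGs only.

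**Figure D2:**
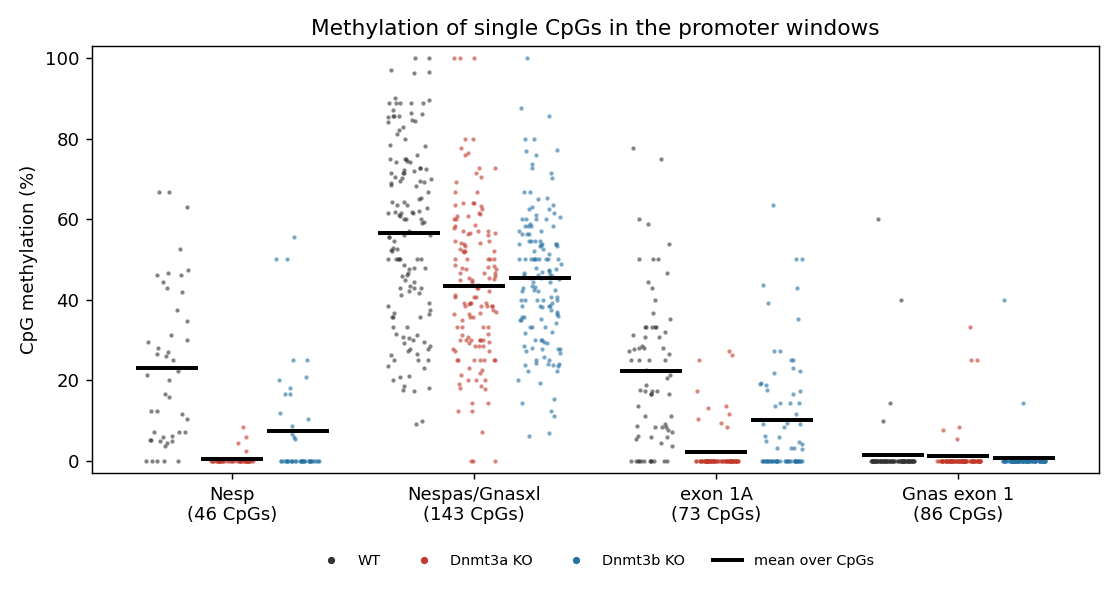
Methylation (%) of single CpGs in the 4 promoter windows, 1 point per CpG, with a bar for the mean of each genotype. At *Nespas*/*Gnasxl* the points of the 3 genotypes overlap around means of 56.7%, 43.5% and 45.5%, whereas at *Nesp* and exon 1A nearly all points of the *Dnmt3a* KO lie at 0.

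The middle levels reached beyond the promoter window. Of the 164 bins of 500 bp with at least 3 CpGs in the cluster, 22 (13.4%) had a mean of 30% to 70% in WT and 17 (10.4%) in all 3 genotypes, against 6.13% and 2.27% of all bins analysed. All 7 bins of the *Nespas*/*Gnasxl* window were among the 17. Taken by itself, the *Dnmt3a* KO had a mean of 30% to 70% in 98 of the 164 bins (59.8%), against 70.2% of all bins. The *Dnmt3b* KO had such a mean in 31 (18.9%), against 13.1%. Of the WT bins at 30% to 70%, 17 of 22 (77.3%) were also at 30% to 70% in the *Dnmt3a* KO and 18 (81.8%) in the *Dnmt3b* KO, against 44.6% and 73.9% of such WT bins in all bins analysed. Among bins with at least 10 CpGs, a limit chosen after the data were seen, 11 of 50 bins (22%) of the cluster were at 30% to 70% in all 3 genotypes, against 1.27% of 221412 bins. With limits of 20% to 80%, 39 bins of the cluster (23.8%) were counted in WT and 26 (15.9%) in all 3 genotypes, against 13.5% and 8.16% of all bins.

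The bins at 30% to 70% in all 3 genotypes included 14 that followed each other without a gap, from 174119501 to 174126500, a stretch of 7 kb from -36.0 to -29.0 kb. It holds the *Nespas* start, the *Gnasxl* start and the long *Gnasxl* first coding exon. Its 345 CpGs had means of 56.9% in WT, 42.4% in the *Dnmt3a* KO and 49.5% in the *Dnmt3b* KO. These values chose the stretch and are a description. Of the 41343 such runs of 1 or more bins in the chromosomes analysed, this was the longest. No other of these runs was longer than 2.5 kb, and the rest of the genome was not searched. A bin with fewer than 3 CpGs ended a run, so that CpG-poor sequence could not hold long runs. The stretch here has 5 CpGs per 100 bp, and its rank therefore also depends on CpG density. The run reached 7 kb at limits of 20% to 80%, where 1 other run in the chromosomes analysed was as long, and 8 kb with 1-kb bins, where the next longest was 7 kb, but it broke into runs of at most 1.5 kb with 250-bp bins, where 2 other runs were as long or longer. The search for runs and these settings were chosen after the data were seen. Just outside, the next bin downstream had 81.2% in WT, 36.5% in the *Dnmt3a* KO and 86.1% in the *Dnmt3b* KO over 6 CpGs. One bin of the run, at -29.8 kb at the end of the long *Gnasxl* exon, had 57.2%, 57.7% and 51.9% over 34 CpGs. The means of the *Dnmt3a* KO and WT thus differed by less than 1 point there. Single CpGs of this bin differed in both directions, and 2 of them were called hypermethylated in the *Dnmt3a* KO (below).

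**Figure D3:**
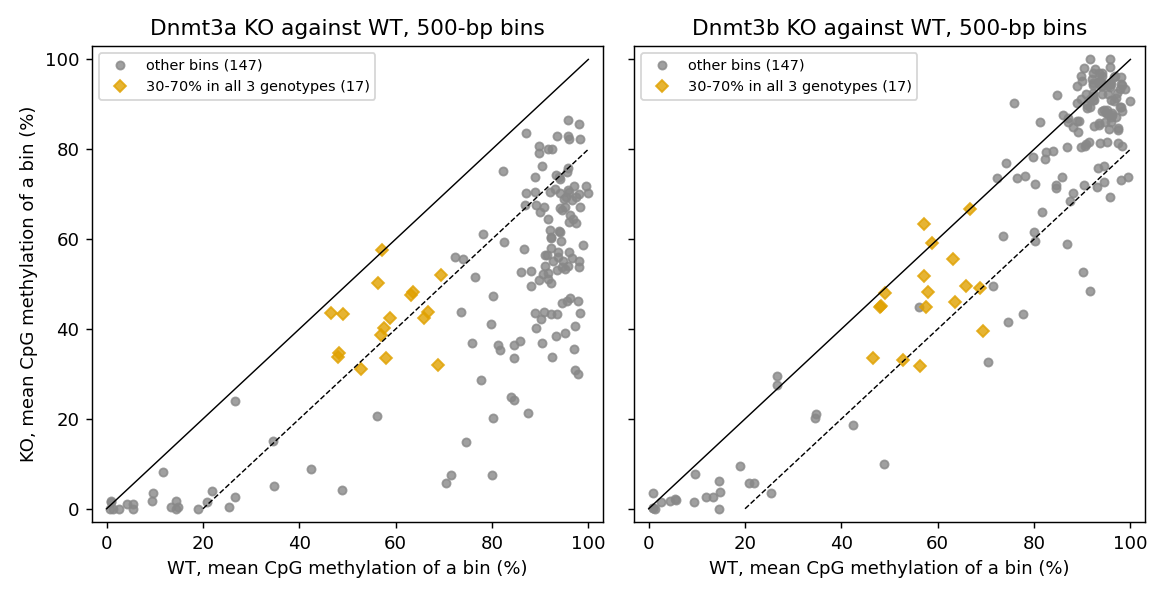
Mean CpG methylation (%) of 500-bp bins of the cluster in the *Dnmt3a* KO (left) and *Dnmt3b* KO (right) against WT ESCs, with a solid line at equal levels, a dashed line at 20 points below WT and diamonds for the 17 bins at 30% to 70% in all 3 genotypes. Most bins near 90% in WT fall below the dashed line in the *Dnmt3a* KO. The diamonds were chosen by their levels in all genotypes, which limits how far they can lie from the line of equal levels.

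At *Nesp*, methylation was low in WT and nearly absent without DNMT3A. Mean methylation of 46 CpGs was 23.2% ± 19.4 (SD over CpGs) in WT, 0.461% ± 1.64 in the *Dnmt3a* KO and 7.55% ± 14.0 in the *Dnmt3b* KO. In the *Dnmt3a* KO 4 of 835 reads were methylated and 42 of 46 CpGs had no methylated read, against 5 CpGs in WT and 30 in the *Dnmt3b* KO. The differences from WT were -22.7 and -15.6 points, with intervals in read share from -27.5 to -21.5 and from -19.9 to -13.1. The *Dnmt3a* KO had 1.99% and the *Dnmt3b* KO 32.6% of the WT level. With windows of 1 kb to both sides the differences were -14.5 and -8.16 points.

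The low levels around the *Nesp* start began further upstream in the *Dnmt3a* KO than in WT. The bin centred at -46.8 kb, upstream of the window, had 71.5% in WT, 7.47% in the *Dnmt3a* KO and 49.7% in the *Dnmt3b* KO over 10 CpGs. The next bin, at -46.3 kb, had 26.6%, 2.72% and 27.6% over 16 CpGs, and the bin of the start itself, at -45.8 kb, had 25.3%, 0.317% and 3.57% over 22 CpGs. Runs in which the mean of 5 neighbouring CpGs stayed under 10% were at most 0.991 kb long around *Nesp* in WT. In the *Dnmt3a* KO a run of 2.496 kb with 138 CpGs covered the *Nesp* start from -46.5 to -44.0 kb, and another of 2.746 kb followed from -43.5 to -40.8 kb. In the *Dnmt3b* KO the run over the start was 0.641 kb long, and others of 0.855, 0.808 and 1.36 kb followed, the first of them only some bases after it.

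**Figure D4:**
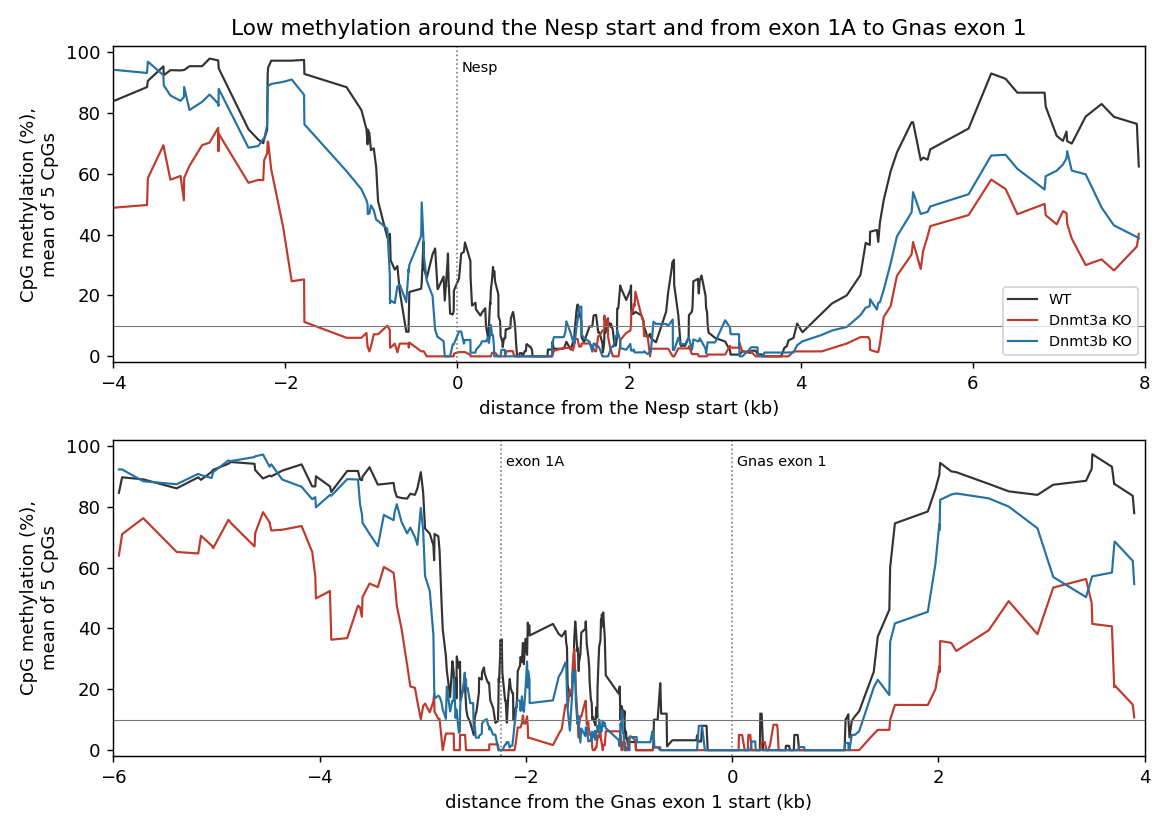
CpG methylation (%) as the mean of 5 neighbouring CpGs against the distance (kb) from the *Nesp* start (top) and the *Gnas* exon 1 start (bottom), with 1 line per genotype, dotted lines at starts and a thin line at 10%. In the *Dnmt3a* KO the low stretch before *Nesp* starts further upstream than in WT, and the peaks between exon 1A and exon 1 seen in WT are lower or missing.

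At exon 1A the same order of genotypes was found as at *Nesp*. Mean methylation of 73 CpGs was 22.4% ± 18.6 (SD over CpGs) in WT, 2.23% ± 6.20 in the *Dnmt3a* KO and 10.2% ± 14.7 in the *Dnmt3b* KO. The knockouts had 9.95% and 45.7% of the WT level, with differences of -20.2 and -12.2 points and intervals in read share from -20.8 to -15.9 and from -14.2 to -8.74. CpGs without a methylated read numbered 12 of 73 in WT, 63 in the *Dnmt3a* KO and 35 in the *Dnmt3b* KO. In WT the level of exon 1A was less than that of *Nespas*/*Gnasxl*, although both carry an oocyte mark, and 37 of 73 CpGs were at 20% to 80%. The difference in the *Dnmt3b* KO was -17.1 points for minus-strand reads over 63 CpGs and -1.98 points for plus-strand reads over 39 CpGs. In the *Dnmt3a* KO it was -23.0 and -16.6 points. The strands were thus counted at sets of CpGs that were not the same, and their part was not tested.

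The WT methylation of exon 1A was not even. The bins from -2.76 to -1.26 kb had 34.7%, 20.8%, 34.6% and 21.9% in WT, 5.02%, 1.39%, 15.1% and 3.99% in the *Dnmt3a* KO, and 21.2%, 5.83%, 20.2% and 5.73% in the *Dnmt3b* KO. The bin at -1.76 kb, which holds a short exon of several exon 1A transcripts, had the highest level of the 4 in the *Dnmt3a* KO. Between the exon 1A and exon 1 windows, 92 CpGs had means of 19.1%, 5.42% and 6.91%.

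*Gnas* exon 1, the promoter of the stimulatory alpha subunit, was unmethylated in each genotype as far as its depth shows. Mean methylation of 86 CpGs was 1.45% in WT, 1.22% in the *Dnmt3a* KO and 0.631% in the *Dnmt3b* KO, from 8 of 591, 9 of 622 and 8 of 822 methylated reads. The intervals of the difference in read share, -1.37 to 1.54 and -1.76 to 0.768 points, included 0. Depth was low in this GC-rich window (73.9% G and C), with a median of 5, 6 and 7 reads and 86 of 118 reference CpGs used, and only 5 CpGs had at least 10 reads in every genotype. Over those 5 CpGs the *Dnmt3a* KO differed from WT by 8.33 points, so that the sign of so small a difference was not settled. The low stretch around exon 1 held a run under 10% of 2.935 kb in the *Dnmt3a* KO from -1.41 to 1.53 kb and of 2.294 kb in the *Dnmt3b* KO from -1.06 to 1.23 kb. In WT the run that held the start was 0.902 kb long and was followed by another of 0.796 kb. A single CpG with 3 of 5 methylated reads separated them, and together they reached from -0.631 to 1.10 kb.

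Between the knockouts, the *Dnmt3a* KO was lower than the *Dnmt3b* KO at *Nesp* by -7.09 points (interval in read share -9.97 to -6.11) and at exon 1A by -8.02 points (-8.70 to -5.05). At *Nespas*/*Gnasxl* the difference was -1.93 points and its interval, -3.10 to 1.93, included 0. At *Gnas* exon 1 it was 0.589 points, with an interval from -0.685 to 1.84. The direction at *Nespas*/*Gnasxl* turned with the strand, each counted at its own set of CpGs. Plus-strand reads gave 48.2% in the *Dnmt3a* KO and 37.8% in the *Dnmt3b* KO, and minus-strand reads gave 42.2% and 54.9%. At *Nesp* and exon 1A the *Dnmt3a* KO was the lower on both strands.

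Single CpGs were called hypomethylated when the 95% credible interval of the difference in methylation from WT, computed from the pooled reads, lay beyond 0.2. In the cluster 312 of 1812 CpGs (17.2%) were called in the *Dnmt3a* KO, against 25.6% of all CpGs tested, and 58 of 1819 (3.19%) in the *Dnmt3b* KO, against 2.14%. In the *Dnmt3a* KO the share was 36.4% (94 of 258) upstream of *Nesp*, 24% (66 of 275) in the *Gnas* body and 20.8% (37 of 178) downstream of *Gnas*. It was 17.9% (75 of 420) between *Gnasxl* and exon 1A and 7.69% (11 of 143) at *Nespas*/*Gnasxl*. From *Nesp* to *Nespas* it was 7.66% (18 of 235), and between exon 1A and exon 1 5.43% (5 of 92). A lower WT level leaves less room for a call, so that these shares do not show how much methylation was kept. At *Nespas*/*Gnasxl* the share in the *Dnmt3b* KO was 6.21% (9 of 145), above its background, and of similar size to that of the *Dnmt3a* KO. At exon 1A 2 of 73 CpGs (2.74%) were called in the *Dnmt3a* KO and 5 of 73 (6.85%) in the *Dnmt3b* KO. At *Nesp* these were 4 of 46 (8.70%) and 4 of 47 (8.51%), and at *Gnas* exon 1 none of 92 and 96. A CpG below 20% in WT leaves no room for such a call. Under 10% in WT were 25 of 73 CpGs at exon 1A, 16 of 46 at *Nesp* and 82 of 86 at *Gnas* exon 1. At credible differences of 0.1 and 0.3 the cluster had 519 (28.6%) and 175 (9.66%) hypomethylated CpGs in the *Dnmt3a* KO, against 40.7% and 14.7% of all CpGs tested. In the *Dnmt3b* KO these were 116 (6.38%) and 16 (0.880%), against 5.60% and 0.819%, so that at 0.3 the cluster was near the background. In the calls with an adjusted Fisher's exact test, 649 CpGs of the cluster (35.8%) were lower in the *Dnmt3a* KO, against 49.6% of all CpGs tested.

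Hypermethylated CpGs numbered 2 in each knockout, where 0.00703% of all CpGs tested were called in the *Dnmt3a* KO and 0.069% in the *Dnmt3b* KO. At a credible difference of 0.3 the *Dnmt3a* KO had 0 and the *Dnmt3b* KO 1, against 178 and 1707 of all CpGs tested. In the *Dnmt3a* KO both lay 12 bp apart at -30.0 kb in the *Gnasxl* coding exon, within the run of middle levels. The first went from 4 of 11 methylated reads in WT to 18 of 18, and the other from 7 of 15 to 19 of 19. In the *Dnmt3b* KO 1 lay at -46.2 kb before *Nesp*, with 0 of 7 reads in WT and 21 of 29 in the knockout, and 1 at -2.71 kb in the exon 1A window, with 1 of 17 and 7 of 11. Neighbouring CpGs share reads, so that the pair in the *Dnmt3a* KO is not independent.

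In bins, 110 of 164 (67.1%) were lower than WT by more than 20 points in the *Dnmt3a* KO, against 81.6% of all bins, and 18 (11.0%) in the *Dnmt3b* KO, against 8.47%. In the *Dnmt3b* KO, 10 bins (9.71%) were lower with 1-kb bins, against 7.26% of all bins, 10 (8.55%) with at least 5 CpGs a bin, against 6.51%, and 6 (3.66%) with a limit of 30 points, against 2.11%. None of the 164 was higher by as much in either knockout, where 0.0125% and 0.215% of all bins were. Of the 7 bins at *Nespas*/*Gnasxl*, 1 was lower by more than 20 points in each knockout. The median difference over these 7 bins was -15.2 points in the *Dnmt3a* KO and -13.1 points in the *Dnmt3b* KO, against -32.7 and -5.80 points over all bins and -28.0 and -5.45 points over the bins of the cluster. The 7 bins ranged from -23.4 to -3.07 points in the *Dnmt3a* KO and from -29.8 to -1.03 points in the *Dnmt3b* KO. Those of the *Dnmt3a* KO were all nearer to 0 than the median of all bins, whereas those of the *Dnmt3b* KO lay on both sides of it. The *Dnmt3b* KO difference there depended on the strand, as given above. In WT the median of these 7 bins was 63.1%, against 92.0% over all bins, so that the differences in points start from unlike levels. Bins under 20% in WT cannot be lower by 20 points, so that the counts of the cluster and of all bins compare bins of different WT levels.

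ZFP57 keeps methylation at imprinted regions through many rounds of replication and binds TGCCGC when its CpG is methylated. The motif was searched on both strands. The *Nespas*/*Gnasxl* window held 7 matches, exon 1A 2, *Gnas* exon 1 2 and *Nesp* 0, where 36.6% of 14279 promoter windows of 1001 bp hold at least 1 match. The *Nespas*/*Gnasxl* window is 3424 bp long, and its matches are therefore not comparable by number with the shorter windows; *Nespas* and *Gnasxl* by themselves held 2 and 1. The CpGs of the 7 matches had a mean of 69.6% in WT, 60.3% in the *Dnmt3a* KO and 44.1% in the *Dnmt3b* KO, with ranges of 55.6% to 84.4%, 21.7% to 100% and 25% to 80%. The 100% in the *Dnmt3a* KO came from 1 CpG with 3 of 3 reads, which raises that mean. In the stretch printed above, the neighbouring matches in opposite directions at the sequence tgcCGCGgca, which share bases, had 21 of 28 and 20 of 27 methylated reads in WT, 14 of 23 and 14 of 24 in the *Dnmt3a* KO, and 11 of 27 and 10 of 26 in the *Dnmt3b* KO. The match at the end of the stretch had 27 of 43, 5 of 23 and 5 of 20. The 3 CpGs were thus above 60% in WT and at most 41% in the *Dnmt3b* KO. The matches outside the stretch had 38.5%, 60%, 80% and 25.8% in the *Dnmt3b* KO. The YY1 motif GCCATNTT, searched on both strands, had 1 match, in the part of the *Nespas*/*Gnasxl* window around the *Nespas* start, and none at *Nesp*, *Gnasxl*, exon 1A or exon 1, where 16.5% of promoter windows hold it.

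The annotated starts of other genes of the region were methylated. *Mir296* and *Mir298*, microRNA genes upstream of *Nesp*, had means of 84.8% and 88.0% in WT over 14 and 12 CpGs of windows that overlap. The means were 71.3% and 80.7% in the *Dnmt3a* KO, and 80.8% and 86.0% in the *Dnmt3b* KO. Of these CpGs, 2 and 1 had no methylated read in any genotype, and the median CpG had 100% in WT at both genes. *AF085738*, on the minus strand across the 3′ part of *Gnas*, had 93.9%, 79.4% and 93.8% over 20 CpGs. For the *Dnmt3b* KO the interval of the difference in read share included 0 at each of the 3 starts, and for the *Dnmt3a* KO it lay below 0.

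Promoters of other imprinted genes known to carry a methylated imprint were set beside the cluster, of which 7 of 8 were found in the annotation, each with the 500 bp on both sides of its start of highest CpG number. *Plagl1*, a zinc finger gene, had 46.0% in WT, 49.2% in the *Dnmt3a* KO and 45.8% in the *Dnmt3b* KO, and the intervals of both differences in read share (-0.949 to 5.80 and -4.30 to 2.14 points) included 0. *Zrsr1*, a splicing factor retrogene, had 57.1%, 39.1% and 47.8% in the same order. *Airn*, the antisense RNA of the *Igf2r* domain, had 57.7%, 33.5% and 38.7%, and the retrogene *Mcts2* had 56.2%, 50.3% and 42.7%. In read share *Mcts2* had 59.5%, 46.3% and 47.2%, so that the order of the knockouts turned with the measure. *Meg3* had 37.9%, 39.4% and 45.1%, and the intervals of both differences in read share (1.73 to 11.9 and 7.57 to 17.9 points) lay above 0. *Slc38a4* had 12.3%, 4.94% and 7.58% as means and 7.48%, 3.53% and 7.40% in read share. Its interval lay below 0 for the *Dnmt3a* KO (-6.30 to -1.50) and included 0 for the *Dnmt3b* KO (-2.93 to 3.07). *Nnat*, a membrane protein gene, had the highest level of the 7 in the *Dnmt3b* KO, with 62.8% in WT, 34.1% in the *Dnmt3a* KO and 90.6% in the *Dnmt3b* KO. As a share of WT, the *Dnmt3a* KO levels ran from 40.1% at *Slc38a4* to 107.1% at *Plagl1*, so that *Nespas*/*Gnasxl*, at 76.8%, lay within their range and *Nesp* and exon 1A, at 1.99% and 9.95%, lay below it.

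**Figure D5:**
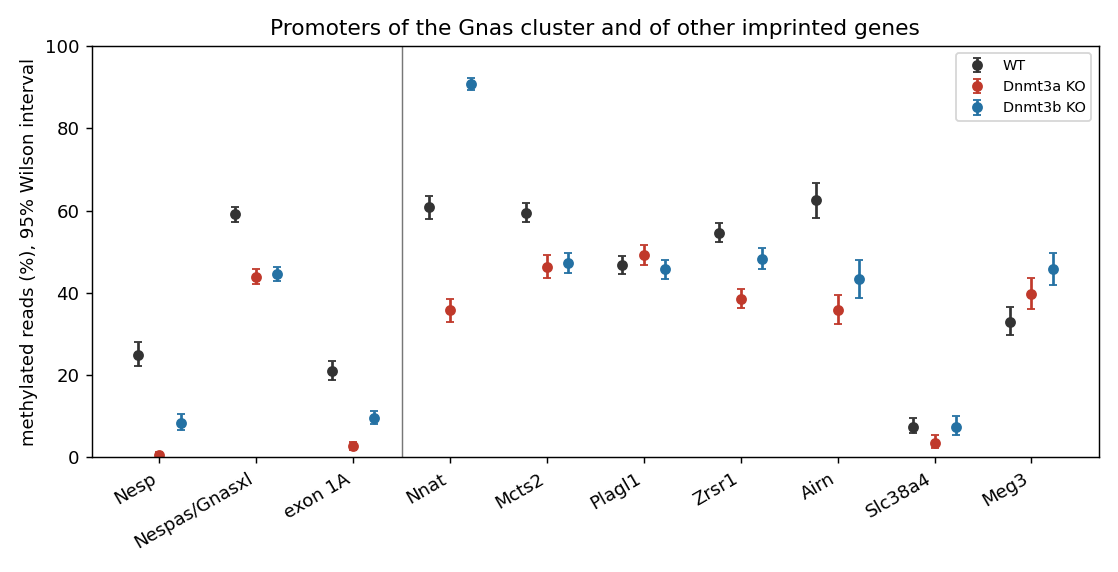
Share of methylated reads (%) in the *Nesp*, *Nespas*/*Gnasxl* and exon 1A windows (left of the line) and at 7 promoters of other imprinted genes, 1 point per genotype with its 95% Wilson interval, which covers counting error only. *Nesp* and exon 1A lie near 0 in the *Dnmt3a* KO, *Nespas*/*Gnasxl* lies between 40% and 60% in each genotype, and *Nnat* stands above 90% in the *Dnmt3b* KO.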

How the data were processed

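WGBS of 3 genotypes of J1 ESCs was used, with 9 libraries pooled by the authors to 1 table of CpGs for each genotype. The authors mapped the reads to mm9 with BSMAP, cleaned them of end-repair bases, clonal reads and mate overlap with BSeQC and made the read counts per CpG with MOABS mCall. The deposited counts, of all reads, of methylated reads and of both by strand, are not normalized. The deposited ratio, a fraction from 0 to 1, is methylated over all reads. In 0 of 55270291 rows did the strands fail to sum to the total. The WT table used here listed 13882752 CpGs, against 20688369 in the *Dnmt3a* KO and 20699170 in the *Dnmt3b* KO. It ended in an incomplete row and was read up to position 140865857 of chromosome 4. Chromosomes 1, 2, 3 and 10 to 19 and this part of chromosome 4 were analysed, and the rest of the genome was not. The tables hold 0 columns of other samples.

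The analysis used Python 3.11.15, NumPy 2.4.6, SciPy 1.17.1, pandas 2.3.3, numba 0.67.0 and matplotlib 3.10.9. Methylation levels were means of the ratio over CpGs that reached 3 reads in all genotypes. Intervals were 95% Wilson intervals of read shares and Newcombe intervals of their differences. CpG calls used Beta posteriors with a uniform prior and at most 200 reads per CpG, larger counts being reduced in proportion, and were tested on simulated data. Printed sequences come from the mm9 genome and starts from GENCODE. Genes named were *Gnas*, *Nespas*, every gene overlapping the region, a list of imprinted genes and ESC regulators, and *Dnmt3a* and *Dnmt3b* for the genotype check. The region, its members and these lists were chosen with earlier results of these data known. Alternatives covered the read minimum, weighting by reads, window and bin size, single strands, call rules and limits.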

Additional observations from a re-analysis of the deposited data

How the results depend on the processing

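Of 84 alternatives, 45 kept the result within the limits set for it and 39 moved it. Counts and run lengths cannot reverse, so that only the 48 alternatives for promoter windows could, and at *Gnas* exon 1 the intervals included 0. All 36 alternatives for *Nesp*, *Nespas*/*Gnasxl* and exon 1A gave lower levels in the knockouts. No paired analysis was possible because the tables pool all libraries of a genotype, and no library could be left out either. In percentage points from WT, plus-strand reads in the *Dnmt3a* KO gave -33.2 at *Nesp* over 11 CpGs, -8.19 at *Nespas*/*Gnasxl* and -16.6 at exon 1A. In the *Dnmt3b* KO they gave -18.6 at *Nespas*/*Gnasxl* and -1.98 at exon 1A. Minus-strand reads gave -14.6 at *Nespas*/*Gnasxl* and -23.0 at exon 1A in the *Dnmt3a* KO. In the *Dnmt3b* KO they gave -1.85 and -17.1 there. The strands were counted at sets of CpGs that were not the same. Windows of 1 kb gave -14.5 and -8.16 at *Nesp* and -24.7 and -15.9 at exon 1A, and windows of 250 bp gave -19.9 at *Nesp* and -15.9 at exon 1A in the *Dnmt3b* KO. The share of methylated reads gave -14.5 at *Nespas*/*Gnasxl* in the *Dnmt3b* KO. At *Gnas* exon 1 the *Dnmt3a* KO differed by 8.33 over the 5 CpGs with at least 10 reads and by 3.76 on the plus strand, and the *Dnmt3b* KO by 0.561 on the minus strand. Hypomethylated CpGs in the *Dnmt3a* KO numbered 519 and 175 at credible differences of 0.1 and 0.3 and 649 by the Fisher test, and in the *Dnmt3b* KO 116 and 16 at 0.1 and 0.3; hypermethylated CpGs, 2 in each knockout as reported, numbered 6 (0.1), 0 (0.3) and 9 (Fisher) in the *Dnmt3a* KO, against 4881, 178 and 11105 of all 13437365 CpGs tested, and 17 (0.1) and 1 (0.3) in the *Dnmt3b* KO, against 53906 and 1707 of 13473086, and 1 with at least 10 reads, against 7085 of 11282297. For hypermethylated CpGs the settings of 0.3 and of at least 10 reads were chosen after the data were seen. Bins lower in the *Dnmt3b* KO numbered 10 at 1 kb, 6 at more than 30 points and 10 with at least 5 CpGs a bin. Bins of middle level numbered 39 in WT and 26 in all genotypes at 20% to 80%, 13 (12.6%) and 9 (8.74%) at 1 kb, against 5.58% and 2.25% of all such bins, and 14 (28%) and 11 (22%) with at least 10 CpGs a bin, against 8.26% and 1.27%. The longest run of such bins was 1.5 kb with 250-bp bins. The cause of these shifts was not tested. Depth limits *Gnas* exon 1 most, at a median of 5 to 7 reads.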

Other observations

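Some values were noticed only after the data had been seen and are given as values. A pair of bins of low WT level lay inside the *Gnasxl* transcript away from any start used here. Its bins at -19.3 and -18.8 kb held 3 and 6 CpGs and had 26.7% and 14.5% in WT, and the nearest bins with a level had 93.6% over 3 CpGs upstream and 63.2% at 1 CpG downstream. The first of these bins had 24.1% in the *Dnmt3a* KO and 29.6% in the *Dnmt3b* KO, but 1 of its 3 CpGs had 80%, 55.6% and 88.9% in WT, the *Dnmt3a* KO and the *Dnmt3b* KO. The other bin had 0% in both knockouts. At the upstream end of the region, the bin at -68.8 kb had 9.42% in WT, 1.67% in the *Dnmt3a* KO and 1.56% in the *Dnmt3b* KO over 4 CpGs, and the bin at -67.3 kb had 79.98%, 7.60% and 61.5% over 11 CpGs.

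Among the longest runs of bins at 30% to 70% in all 3 genotypes, 1 run of 5 bins lay over *Zrsr1* within *Commd1*, from 22871501 to 22874000 on chromosome 11, an imprinted gene of the list above. Another run of 5 bins lay in *Shisa6*, from 66331001 to 66333500 on the same chromosome. No explanation was tested for either.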
